A study of Mus musculus with 17 samples.

Results

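The dual-specificity MAP kinase phosphatases described here are the products of 10 genes, Dusp1, Dusp2, Dusp3, Dusp4, Dusp5, Dusp6, Dusp7, Dusp8, Dusp10 and Dusp16. They were taken by gene symbol from a table of 24453 gene models, and all 10 symbols were found, each in 1 row. PolyA RNA-seq was examined in 13 libraries from 2 kinds of mouse macrophage. Immortalized bone marrow-derived macrophages (iBMDMs) of C57Bl/6EiJ origin carried BRAF(V600E) and Myc in all 4 groups, received vehicle, and were either a scramble control (Scramble) or lines in which CRISPR/Cas9 had targeted Atf3 (Atf3KO), the Jun gene (JunKO) or Jund, the gene of JunD (JunDKO), with 2 libraries per group. The titles of the Scramble libraries name zsGreen where those of the edited groups name vehicle, while the treatment label is vehicle for all. Thioglycollate-elicited macrophages (TGEMs), primary cells of the mouse peritoneum, were given vehicle (PBS) or 1 h of KLA (Kdo2 lipid A), an agonist of TLR4. There were 1 vehicle and 1 KLA library from C57Bl/6EiJ and 1 vehicle and 2 KLA libraries from Balb/cJ. BRAF(V600E) is an active kinase of the ERK cascade, so every iBMDM group, the control included, carried a constitutive input to one of the pathways these phosphatases act on. The edited cells were sorted for a marker on the guide virus, and no cloning step is described in the sources used here. Nothing in the labels says whether replicates came from separate cultures or animals, so p-values measure the spread between these libraries, which may be technical.

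MAP kinases are switched on by phosphorylation of a threonine and a tyrosine in their activation loop, and dual-specificity MAP kinase phosphatases remove both phosphates. Dusp1, Dusp2, Dusp4 and Dusp5 encode nuclear enzymes that are typically induced within the first hour of stimulation; Dusp1 acts mainly on p38 and JNK in macrophages, and Dusp5 on ERK. Dusp6 and Dusp7 encode cytoplasmic phosphatases selective for ERK, and Dusp6 is a classical transcriptional target of ERK signalling itself. Dusp8, Dusp10 and Dusp16 encode enzymes selective for JNK and p38, and Dusp3 (VHR) is a small atypical phosphatase of the same class that lacks the MAP kinase-binding domain of the others. In macrophages, Dusp1 is known as a brake on cytokine production after TLR4 stimulation.

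Of the 5 genes whose mRNA rose with KLA, 4 had an entry in the RefSeq promoter table for GRCm38.p6, and Dusp4 is named only. The 250 bases before the transcription start are shown for those 4 because their mRNAs rose together within 1 h. Capitals mark full cyclic AMP response elements (CRE, TGACGTCA) and CArG boxes, the sites named for CREB/ATF proteins and for serum response factor, and Dusp2 held neither. All strands read 5′ to 3′ toward the gene.
Dusp1 promoter (chr17:26508473-26508722, minus strand): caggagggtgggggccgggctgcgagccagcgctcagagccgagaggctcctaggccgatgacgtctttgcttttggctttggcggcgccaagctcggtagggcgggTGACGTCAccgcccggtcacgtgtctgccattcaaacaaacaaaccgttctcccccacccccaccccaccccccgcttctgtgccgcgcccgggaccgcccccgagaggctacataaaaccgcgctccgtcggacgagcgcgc
Dusp2 promoter (chr2:127335909-127336158, plus strand): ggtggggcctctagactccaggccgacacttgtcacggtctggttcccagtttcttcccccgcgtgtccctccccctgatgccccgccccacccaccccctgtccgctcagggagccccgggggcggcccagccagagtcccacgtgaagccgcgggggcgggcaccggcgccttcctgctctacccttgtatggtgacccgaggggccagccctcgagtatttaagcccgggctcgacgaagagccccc
Dusp5 promoter (chr19:53528895-53529144, plus strand): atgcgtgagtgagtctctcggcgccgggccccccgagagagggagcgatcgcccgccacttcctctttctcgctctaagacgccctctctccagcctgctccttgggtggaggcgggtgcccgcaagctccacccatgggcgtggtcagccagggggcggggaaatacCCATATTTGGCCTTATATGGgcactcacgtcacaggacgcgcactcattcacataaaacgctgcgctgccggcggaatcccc
Dusp8 promoter (chr7:142095285-142095534, minus strand): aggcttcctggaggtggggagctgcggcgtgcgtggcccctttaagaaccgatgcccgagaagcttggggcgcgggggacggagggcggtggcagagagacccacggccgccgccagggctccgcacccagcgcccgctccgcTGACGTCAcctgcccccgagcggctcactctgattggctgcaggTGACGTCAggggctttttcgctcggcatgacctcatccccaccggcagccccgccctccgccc
On both strands, TGACGTCA stood once in the Dusp1 window, 143 to 136 bases before the start, and at 2 places in the Dusp8 window, 107 to 100 and 63 to 56 bases before it. It occurred in 1.55% of 32851 promoter windows of this length. The Dusp5 window held 2 adjoining CArG boxes, 82 to 73 and 72 to 63 bases before the start, and 1.47% of all windows held one. The annotated start used for the Dusp5 window lies 173 bases from that of the deposited gene model. None of the 9 windows of these phosphatases that could be searched held TGANTCA, the AP-1 site (6.75% of all windows), or an NF-kappaB site (3.9%). The exact letters TGACGCAA (0.438%), CCGGAAGT, 1 form of the ETS site (2.88%), and TATAAA (12.4%) were also absent. Other forms of the ETS site were not searched. The GC box GGGCGG stood in 7 of 9 windows, against 32.7% of all, and TGACG, which overlaps the full CRE, in 4 of 9, against 17.8%. The 9 windows had 56.4% to 77.2% GC, and the shares of all windows were not matched for GC content. These are matches of letters in the reference sequence and not measured binding.

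Depths were derived from the steps in RPKM (reads scaled to exon length and library size) and ran from 1553296 to 18444429 reads, and 74.1% to 86.4% of reads were exonic. All 8 macrophage markers were detected in every library, led by Lyz2. In iBMDMs the T cell, dendritic cell, mesothelial and fibroblast markers were at 0, whereas TGEM libraries also held the 3 B cell markers (summed 4.31 to 14.7 RPKM) and the 4 mesothelial and fibroblast markers (12.3 to 26.1 RPKM, led by Col1a1). Among other markers, TGEMs held S100a8 (neutrophil, 0.79 to 13.2 RPKM), Siglecf (eosinophil, 0.51 to 4.06) and Cpa3 (mast cell, 0.59 to 4.01). The summed B cell markers were 4.31 to 8.18 RPKM with vehicle and 6.22 to 14.7 with KLA. The part of such other cells in the results below was not tested. All libraries are labelled male, although the TGEM libraries held Xist at 19.2 to 28.1 RPKM. mRNA of the targeted genes remained: Atf3 measured 154 and 169 RPKM in Atf3KO against 80.7 and 77.4 in Scramble, Jun 26.2 and 20.5 in JunKO against 17.6 and 18.5, and Jund 6.94 and 6.07 in JunDKO against 9.19 and 8.33. An exon sum of RNA does not check a small edit, and the groups are named as labelled. The paper reports a check of the knockouts by western blot, which these RNA values do not address.

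All 10 phosphatase mRNAs had at least 1 read in both macrophage kinds at rest, and the order of their levels differed. In Scramble iBMDMs the order of mean levels was Dusp6 (63.8 ± 8.50 RPKM, SD, n = 2), Dusp3 (61.2 ± 2.88), Dusp4 (24.2 ± 3.66) and Dusp7 (16.8 ± 1.19), and the other 6 genes lay under 10 RPKM in both libraries. Dusp6 and Dusp3 overlapped between libraries, while Dusp3, Dusp4 and Dusp7 did not. Below them stood Dusp1 (5.36 ± 4.16 RPKM), Dusp16 (4.12 ± 0.81) and Dusp5 (2.23 ± 1.88), whose ranges overlapped with their neighbours in this order. Within each library, however, Dusp16 was above Dusp5. Then came Dusp10 (0.82 ± 0.069), and Dusp2 and Dusp8 with 1 read each over both libraries. In vehicle-treated TGEMs Dusp3 led with 99.0 RPKM in C57Bl/6EiJ and 73.4 in Balb/cJ. Dusp1 followed with 55.3 and 16.1 RPKM, above Dusp7 (17.3 and 10.4) in each library, although their ranges overlapped. From Dusp4 (4.85 and 8.29 RPKM) down to Dusp8 (1.09 and 0.53), the range of each gene overlapped with the next: Dusp5, Dusp10, Dusp6, Dusp16 and Dusp2. Within each library, however, Dusp5 was above Dusp10 and Dusp2 above Dusp8.

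The clearest contrast between the cell kinds was in Dusp6, at 57.8 to 69.8 RPKM in Scramble and 3.39 to 4.43 in vehicle TGEMs. Dusp4 was at 21.6 to 26.8 RPKM in Scramble and 4.85 to 8.29 in vehicle TGEMs. Dusp1, Dusp2, Dusp3, Dusp5, Dusp8 and Dusp10 stood the other way, with every vehicle TGEM library above both Scramble libraries. Thus 8 of the 10 did not overlap between the cell kinds, against 56.8% of the 15647 models above 0 in these libraries, and 6 of the 10 were higher in TGEMs, against 22.7%. Cell kind, immortalization with BRAF(V600E), the year of the label date and the expression of Xist and of Y-linked genes (Ddx3y was at 0 in all 5 TGEM libraries and at 4.93 to 30.6 RPKM in iBMDMs) differ together between these groups and cannot be told apart, and no test was made across them. In bulk RNA, fewer cells of a type and less RNA per cell also cannot be told apart.

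**Figure D1:**
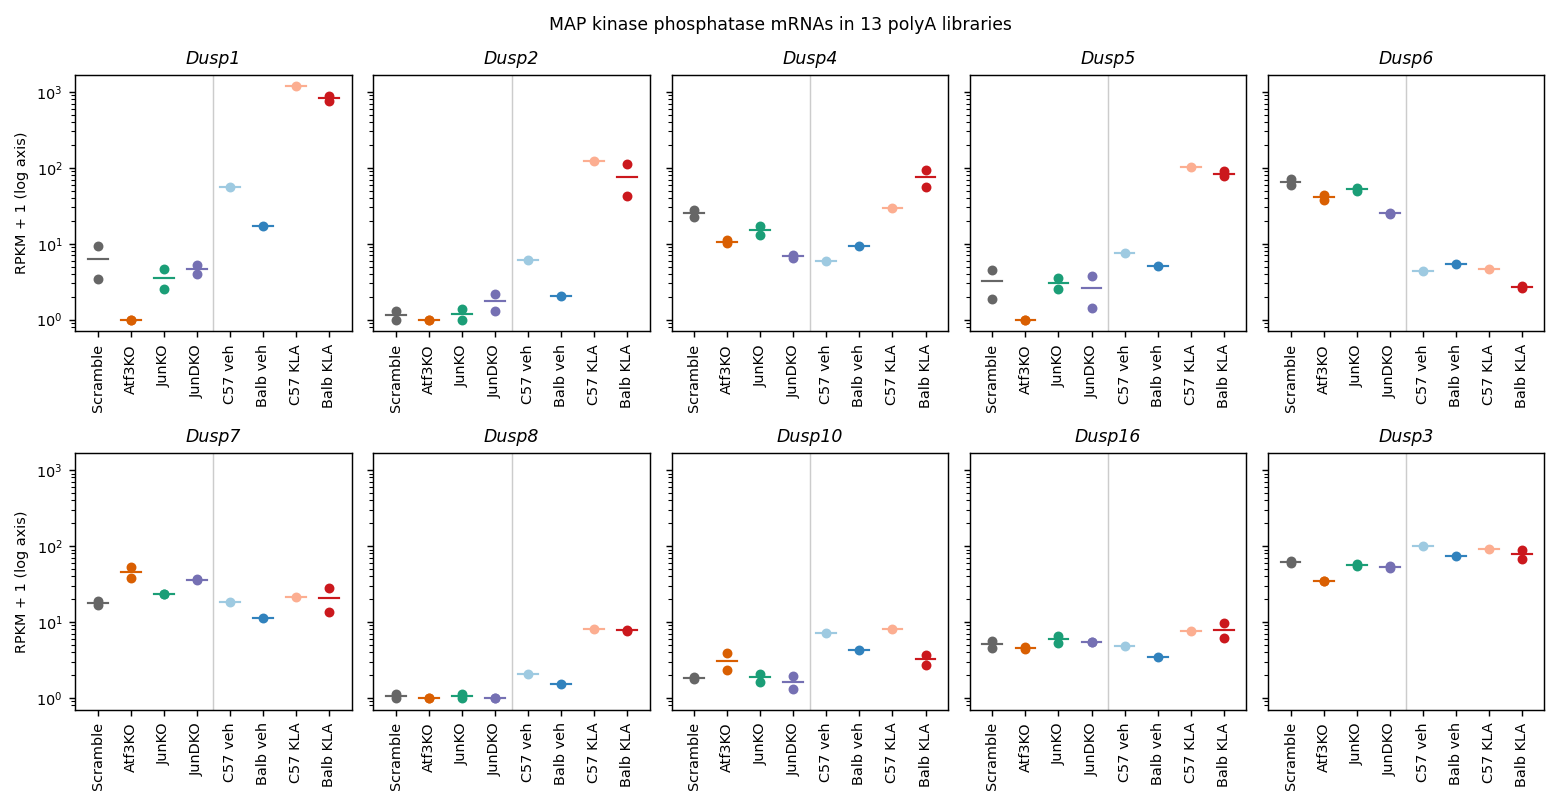
RPKM + 1 on a log axis for each of the 10 genes, with 1 point per library and a line at the group mean, for the 4 iBMDM groups (left of the grey line) and the 4 TGEM groups (right). Dusp1, Dusp2, Dusp4, Dusp5 and Dusp8 lay higher in all 3 KLA libraries than in both vehicle libraries, and Dusp6 was high in iBMDMs and under 5 RPKM in all 5 TGEM libraries.

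The response to TLR4 stimulation was examined by comparing the 3 KLA with the 2 vehicle TGEM libraries, with strain as a covariate. After 1 h of KLA 5 of the 10 phosphatase mRNAs rose and 0 fell (limma-trend, adjusted p under 0.05 over 10357 gene models), where 1.53% of all models tested passed, 1.29% higher and 0.232% lower. The 5 were the 4 nuclear inducible phosphatases, Dusp1, Dusp2, Dusp4 and Dusp5, and Dusp8. Of these, 4 also changed at least 2-fold with a mean of 16 RPKM or more in either group, against 1% of all models in this direction; Dusp8 stayed under 16 RPKM. The median change of the 10 genes was 1.56 on the log2(RPKM + 1) scale, against -0.15 over all models.

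Dusp1 was the most abundant of the 10 mRNAs with KLA. It went from 55.3 RPKM with vehicle to 1183 with KLA in C57Bl/6EiJ, a ratio of 21.4, and from 16.1 to 759 and 888 in Balb/cJ, ratios of 47.2 and 55.2. The lowest KLA library was thus far above the higher vehicle library. The fitted log2 change was 5.08 ± 0.34 (SE, n = 3 against 2, limma-trend adjusted p = 6.22e-04), the 18th largest rise among the 10357 models. Within pairs of 1 strain and label date it was 4.39 in C57Bl/6EiJ and 5.47 in Balb/cJ.

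Dusp2, an inducible phosphatase best known from immune cells, went from 5.17 to 122 RPKM in C57Bl/6EiJ and from 1.06 to 41.1 and 109 in Balb/cJ. The Balb/cJ vehicle value rests on 4 reads. Its log2 change was 4.74 ± 0.43 (SE, limma-trend adjusted p = 0.00244), and the pairs of 1 label date gave 4.32 and 4.35. Dusp5, the nuclear ERK phosphatase, went from 6.48 to 101 RPKM in C57Bl/6EiJ and from 4.08 to 89.0 and 75.9 in Balb/cJ. Its 3 KLA libraries lay close together and its log2 change was 3.92 ± 0.25 (SE, limma-trend adjusted p = 5.80e-04).

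Dusp4, a nuclear phosphatase of ERK, JNK and p38, went from 4.85 to 28.6 RPKM in C57Bl/6EiJ and from 8.29 to 93.3 and 54.6 in Balb/cJ. The KLA libraries spread widely among themselves but none overlapped the vehicle libraries, and the log2 change was 2.69 ± 0.32 (SE, limma-trend adjusted p = 0.00792). Dusp8, a JNK and p38 phosphatase, went from 1.09 to 7.16 RPKM in C57Bl/6EiJ and from 0.53 to 6.92 and 6.64 in Balb/cJ, where the vehicle library held 6 reads. Its log2 change was 2.18 ± 0.25 (SE, limma-trend adjusted p = 0.00679).

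The other 5 did not pass the test. Dusp16, a JNK and p38 phosphatase, measured 3.85 and 2.51 RPKM with vehicle against 6.63, 8.72 and 5.15 with KLA, with no overlap and a log2 difference of 0.93 ± 0.29 (SE, limma-trend adjusted p = 0.229). Of all models, 23.7% had KLA and vehicle libraries that did not overlap. Dusp7, the cytoplasmic ERK phosphatase, lay at 17.3 and 10.4 RPKM with vehicle and 20.2, 26.8 and 12.5 with KLA, and Dusp3 at 99.0 and 73.4 against 89.5, 86.7 and 66.4. Both overlapped between treatments. Dusp6 was at 3.39 and 4.43 RPKM with vehicle and 3.63, 1.58 and 1.74 with KLA, and Dusp10 at 6.09 and 3.31 against 7.16, 1.74 and 2.70. The 95% intervals of the log2 change were -0.31 to 1.37 for Dusp7 and -1.32 to 0.21 for Dusp6. Without the Balb/cJ vehicle library the change of Dusp6 was 0.077.

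All 5 calls with KLA were lost without the Balb/cJ vehicle library, the shallower of the 2 vehicle libraries at 2342456 reads, in a fit with 1 residual degree of freedom in which 28 of all models passed. The log2 changes were then 4.39 for Dusp1, 3.77 for Dusp5, 4.32 for Dusp2, 2.34 for Dusp4 and 1.96 for Dusp8, with adjusted p from 0.0573 to 0.329 (limma-trend). Dusp4 was also lost without the C57Bl/6EiJ vehicle or the C57Bl/6EiJ KLA library, without the strain covariate and without the filter on low values (adjusted p 0.0514 to 0.0849), and Dusp8 without Balb/cJ KLA replicate 1, with label date in place of strain and without that filter (0.0683 to 0.100), while the direction held in every one of these fits. The change with KLA followed GC content weakly across models (Spearman's rho 0.20), and the 5 genes had 54.5% to 61.2% GC against a median of 49.2%, the highest being Dusp5, whose value comes from a reference transcript of 1815 bases while its deposited model has 1150. With GC correction all 5 still passed, with changes of 2.14 to 5.10.

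**Figure D2:**
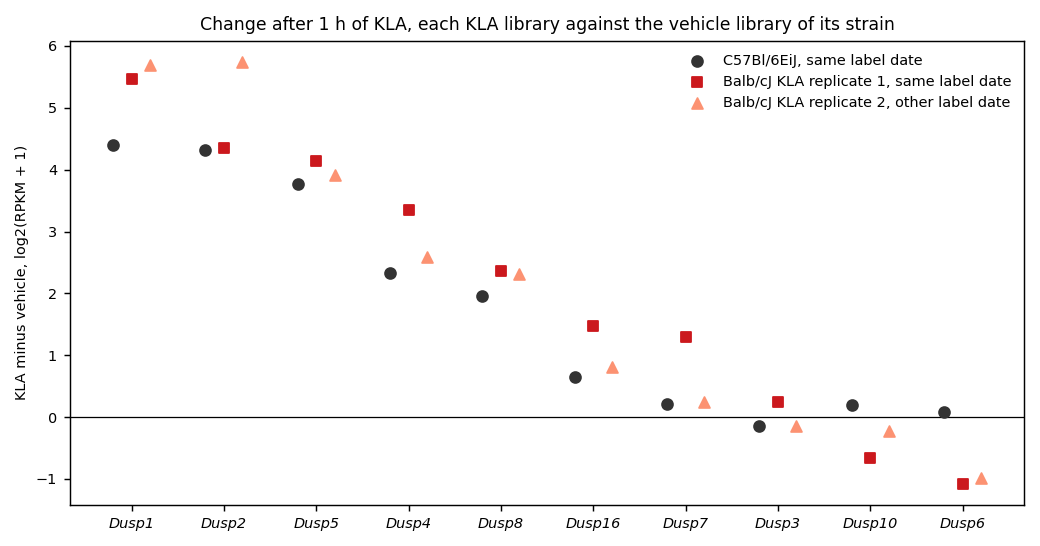
Difference in log2(RPKM + 1) between each KLA library and the vehicle library of its strain for the 10 genes, by strain and by whether both carry the same label date. Dusp1, Dusp2, Dusp5, Dusp4 and Dusp8 lay above 1.9 in all 3 libraries, whereas Dusp10 and Dusp6 lay above 0 in C57Bl/6EiJ and below 0 in both Balb/cJ libraries.

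With KLA the summed RPKM of the 10 genes was 1569 in C57Bl/6EiJ and 1115 and 1223 in Balb/cJ, against 203 and 124 with vehicle. Dusp1 made up 68.1% to 75.4% of that sum with KLA, whereas with vehicle Dusp3 was the largest at 48.9% and 59.2%. In iBMDMs the sum was 122 to 180 RPKM in all 8 libraries. Dusp6 or Dusp3 was the largest there except in both Atf3KO libraries, where Dusp7 was (30.3% and 36.4%).

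**Figure D3:**
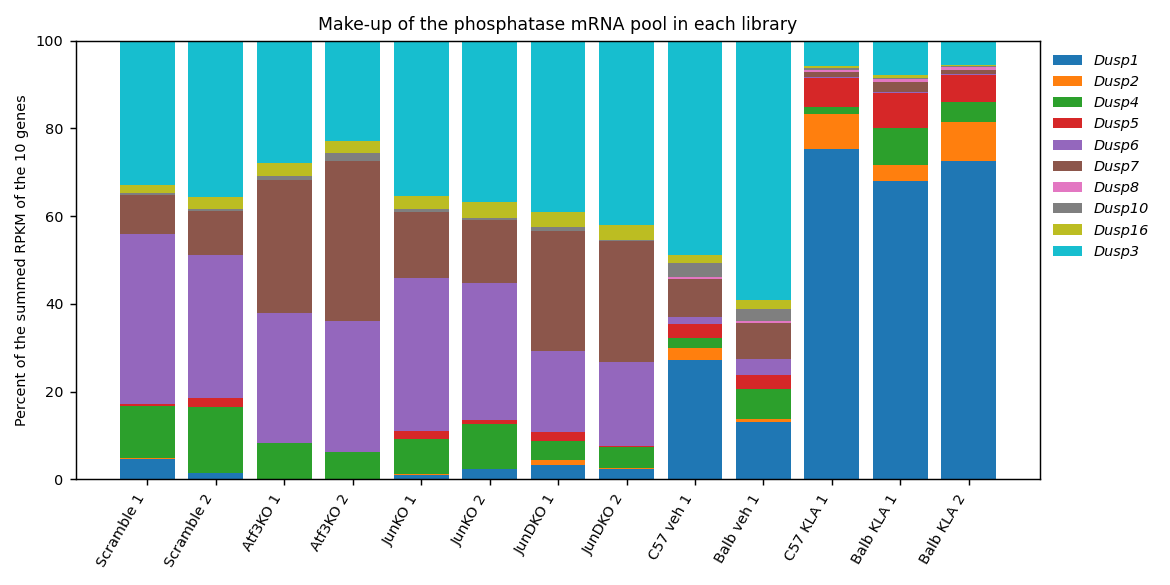
Percent of the summed RPKM of the 10 genes held by each gene in each of the 13 libraries, stacked to 100%. Dusp1 filled 68.1% to 75.4% of the 3 KLA libraries, and Dusp7 took its largest shares in the Atf3KO and JunDKO libraries.

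The group labelled JunDKO was compared with Scramble to examine the targeting of JunD. Of 8 phosphatases with a mean of at least 1 RPKM in iBMDMs, Dusp4 and Dusp6 fell and Dusp7 rose (limma-trend, adjusted p under 0.05 over 10691 models), where 11.7% of all models passed, 6.93% higher and 4.82% lower. All 3 also changed 2-fold at 16 RPKM or more, which 4.97% of all models did. Dusp2 and Dusp8 had means under 1 RPKM in iBMDMs and were not tested. The median change of all models was 0.23 on the log2 scale in JunDKO, and setting equal library medians lowered it by 0.26. S100a8, the 1 neutrophil marker of 5 detected in iBMDMs, was at 0 in both JunDKO libraries and at 21.8 to 41.1 RPKM in the other 6, and the macrophage markers moved unevenly. Lyz2, which dominates their sum, was at 14815 and 15109 RPKM in JunDKO against 20190 and 21520 in Scramble, and 3 of the 8 markers (Lyz2, Adgre1 and Itgam) were below Scramble in both JunDKO libraries, 4 (Csf1r, Cd68, Fcgr1 and Mertk) were above it and 1 overlapped. Mertk was at 36.1 and 36.8 RPKM against 7.04 and 8.27. Their part in the changes was not tested.

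Dusp4 measured 5.58 and 6.09 RPKM in JunDKO against 21.6 and 26.8 in Scramble, a log2 change of -1.88 ± 0.22 (SE over 2 against 2 libraries, limma-trend adjusted p = 0.00124). Dusp6, the ERK-selective phosphatase and ERK target, measured 23.5 and 24.5 RPKM against 69.8 and 57.8, a log2 change of -1.37 ± 0.18 (SE, limma-trend adjusted p = 0.00257). Neither gene's libraries overlapped between the groups, as for 61.6% of all models, and both passed in all 20 alternative fits, with changes of -2.16 to -1.42 for Dusp4 and -1.66 to -1.23 for Dusp6. Dusp7, the closest relative of Dusp6 in substrate and location, went the other way, at 35.3 and 35.1 RPKM against 16.0 and 17.7. Its log2 change was 1.02 ± 0.20 (SE, limma-trend adjusted p = 0.0151), but the call was lost in 5 of 20 alternatives, with equal library medians (0.73, adjusted p = 0.0601) and on leaving out any 1 of the 4 libraries (adjusted p up to 0.115).

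Dusp3 lay at 50.1 and 53.9 RPKM in JunDKO against 59.1 and 63.2 in Scramble and did not pass (limma-trend adjusted p = 0.386). Dusp1 measured 4.32 and 2.97 RPKM in JunDKO and 8.30 and 2.41 in Scramble. Dusp16 stood at 4.42 and 4.40 against 3.55 and 4.69, and Dusp5 at 2.80 and 0.42 against 0.90 and 3.56. These 3 overlapped between the groups.

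In JunKO 0 of the 8 tested phosphatases passed by limma-trend, 1 did at an unadjusted p under 0.05, and 0 passed by limma-voom on recovered reads; over all models 0.281% passed, and 7.88% reached an unadjusted p under 0.05. The exception at the unadjusted level was Dusp4, at 12.1 and 16.1 RPKM against 21.6 and 26.8, with no overlap and a log2 difference of -0.74 ± 0.22 (SE, limma-trend adjusted p = 0.363). Dusp6 stood at 52.9 and 49.1 RPKM against 69.8 and 57.8, and Dusp7 at 22.7 and 22.6 against 16.0 and 17.7 (log2 difference 0.41 ± 0.20, SE, limma-trend adjusted p = 0.717). Libraries of JunKO and Scramble did not overlap in 37.2% of all models. The 95% interval for Dusp6 ran from -0.73 to 0.11, so a fall of the size seen in JunDKO lies outside it.

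JunDKO and JunKO differed directly in 2 of the 8. Dusp6 was lower in JunDKO by a log2 difference of -1.06 ± 0.18 (SE, limma-trend adjusted p = 0.0109) and Dusp4 by -1.13 ± 0.22 (adjusted p = 0.0167), where 8.14% of all models passed, and 3.81% of all models did so in the lower direction. Dusp7 was higher by 0.62 ± 0.20 without passing (limma-trend adjusted p = 0.107), although the same difference passed without either or both Atf3KO libraries in the fit (adjusted p 0.0412 to 0.0424), and with both left out and replicate number as a block (adjusted p = 0.0199), an alternative chosen after seeing the data. The call of Dusp6 was lost on leaving out any 1 of the 4 libraries (adjusted p up to 0.101), and that of Dusp4 without JunKO replicate 2 or either JunDKO library (up to 0.138).

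In Atf3KO 5 of the 8 tested phosphatases passed, Dusp7 higher and Dusp1, Dusp3, Dusp4 and Dusp6 lower than in Scramble, where 41.2% of all models passed, 20.7% higher and 20.6% lower. Where so many models passed, a count of 5 of 8 is no result about these genes as a group. With the 2-fold and 16 RPKM limits Dusp7 and Dusp4 remained, and 12.5% of all models did. Both Atf3KO libraries held 0 reads for 523 of 10257 models (5.1%) that had at least 9 reads in Scramble, against 1 in JunKO and 44 in JunDKO, and among them were Ube2n and Mrpl35, which most cells use. The change in Atf3KO also followed GC content across models (Spearman's rho 0.50 over 10617 models, which are not independent replicates), against 0.11 in JunKO and 0.092 in JunDKO. With GC correction the 5 phosphatases still passed and Dusp5 did as well (limma-trend adjusted p = 0.0137), and 4355 of all models passed. The part of the models at 0 was not tested. Of the 8 macrophage markers 4 (Csf1r, Cd68, Fcgr1 and Mertk) were above Scramble in both Atf3KO libraries and 4 overlapped, with Mertk at 28.8 and 24.6 RPKM against 7.04 and 8.27. Jund measured 22.6 RPKM in Atf3KO replicate 1 and 83.0 in replicate 2 against 9.19 and 8.33 in Scramble, and the part of these in the changes was not tested. In JunKO 4 of the 8 markers (Itgam, Lyz2, Fcgr1 and Mertk) were likewise above Scramble and 4 overlapped.

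Dusp7 measured 37.1 and 52.7 RPKM in Atf3KO against 16.0 and 17.7 in Scramble, a log2 change of 1.34 ± 0.20 (SE, limma-trend adjusted p = 0.00234), which passed in all 18 alternatives, at 0.71 to 1.59. Its GC content was 57.6%, above the median of 49.2% over models, and the lowest value, 0.71, was that with GC correction (adjusted p = 0.0168). Dusp4 measured 10.1 and 9.08 RPKM against 21.6 and 26.8, a log2 change of -1.25 ± 0.22 (SE, limma-trend adjusted p = 0.00377). Dusp3 measured 34.1 and 33.2 against 59.1 and 63.2, with a change of -0.84 ± 0.16 (SE, limma-trend adjusted p = 0.00527). Dusp4 and Dusp3 likewise passed in all 18 alternatives. Dusp6, at 36.2 and 43.1 against 69.8 and 57.8, changed by -0.67 ± 0.18 (SE, limma-trend adjusted p = 0.0200), which no longer passed without Scramble replicate 1, without Atf3KO replicate 1 and with these 2 groups alone in the fit (adjusted p up to 0.106).

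Dusp1 was listed at 0 in both Atf3KO libraries, against 8.30 and 2.41 RPKM (39 reads) in Scramble, with a fitted log2 change of -2.49 ± 0.50 (SE, limma-trend adjusted p = 0.00659) whose size depends on the pseudocount. Of 1159 models with Scramble reads within 25% of those of Dusp1, 83 (7.16%) were likewise at 0 in both Atf3KO libraries. Dusp5 was also listed at 0 in both, against 9 reads in Scramble (limma-trend adjusted p = 0.0562), as were 40.6% of the 567 models with similar reads. It passed in 8 of 17 alternatives, among them a pseudocount of 0.1, limma-voom and GC correction. Dusp10 measured 1.35 and 2.86 RPKM against 0.77 and 0.86 (log2 difference 0.73 ± 0.38, SE, limma-trend adjusted p = 0.154), and Dusp16 lay at 3.48 and 3.74 against 3.55 and 4.69, overlapping. Atf3KO replicate 2 carries a later label date than the other 7 iBMDM libraries; without it Dusp7, Dusp4, Dusp3, Dusp6 and Dusp1 all still passed.

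**Figure D4:**
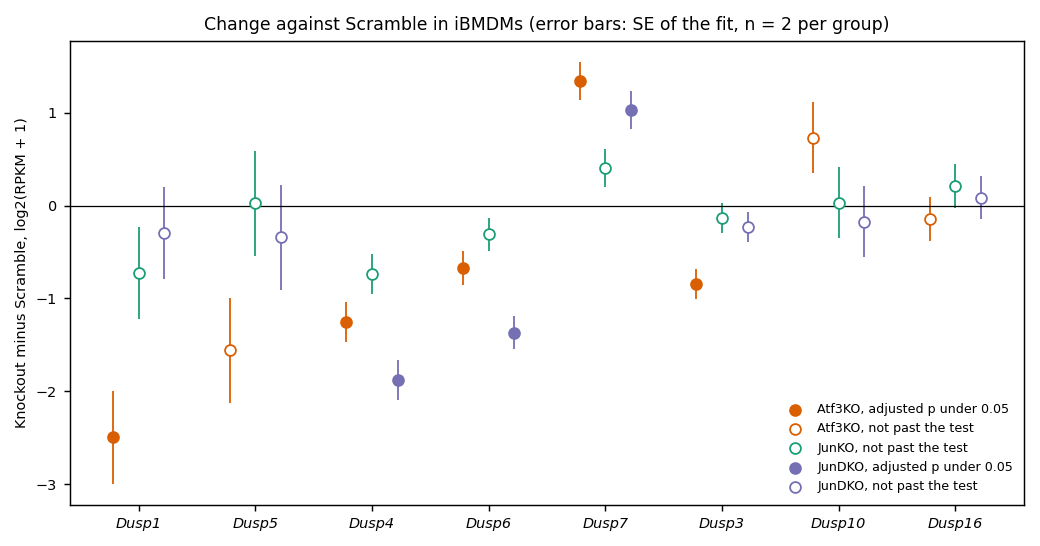
Change in log2(RPKM + 1) against Scramble for the 8 phosphatases tested in iBMDMs, with the SE of the fit (n = 2 libraries per group) and filled points for an adjusted p under 0.05. Dusp4 and Dusp6 lay below 0 and Dusp7 above 0 in all 3 edited groups, and no JunKO point is filled.

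The 3 edited groups share the 2 Scramble libraries, so their values are set side by side without a test of overlap. For Dusp4 the changes against Scramble were -1.25 in Atf3KO, -0.74 in JunKO and -1.88 in JunDKO, and for Dusp7 they were 1.34, 0.41 and 1.02. Tested directly, JunDKO and Atf3KO differed in 4 of 8 (40.7% of all models passed, 25.9% higher and 14.9% lower): Dusp6 and Dusp4 were lower in JunDKO, by -0.70 (limma-trend adjusted p = 0.0173) and -0.63 (adjusted p = 0.0479), and Dusp3 and Dusp1 higher, by 0.61 (adjusted p = 0.0172) and 2.20 (adjusted p = 0.0100). The difference in Dusp4 was lost in 14 of 18 alternatives, those in Dusp3 and Dusp6 in 4 each, among them the fits without JunDKO replicate 1 or 2, and that in Dusp1 without Atf3KO replicate 2, without JunDKO replicate 1 and after quantile normalization. Atf3KO and JunKO differed in 3 of 8 (35.5% of all models, 17% higher and 18.5% lower): Dusp7 was higher in Atf3KO by 0.94 (limma-trend adjusted p = 0.0107), and Dusp3 and Dusp1 lower, by -0.71 (adjusted p = 0.0120) and -1.77 (adjusted p = 0.0274). Each of these 3 was lost without JunKO replicate 2. Dusp7 was also lost with GC correction, where its difference was 0.39 (limma-trend adjusted p = 0.128), and, like Dusp3, with only these groups in the fit (adjusted p = 0.0575 and 0.0654). Dusp1 was lost in 8 of 17 alternatives, among them the fits without either Atf3KO or either JunDKO library. Because Dusp1 was at 0 in Atf3KO, the size of both its differences depends on the pseudocount. Over the alternatives they ran from 0.79 to 6.16 for JunDKO minus Atf3KO and from -5.79 to -0.58 for Atf3KO minus JunKO.

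Between strains, with treatment as a covariate, 0 of the 10 passed by limma-trend, 4 did at an unadjusted p under 0.05, and 1, Dusp4, passed by limma-voom. Of all models 2.31% passed by limma-trend and 21.4% reached an unadjusted p under 0.05. The strain difference followed GC content across models (Spearman's rho -0.45 over 10286 models, which are not independent replicates), and with GC correction 0 of the 10 passed and Dusp1 and Dusp2 differed by -0.78 and -0.68. Dusp10 measured 3.31 RPKM in Balb/cJ against 6.09 in C57Bl/6EiJ with vehicle and 1.74 and 2.70 against 7.16 with KLA, and its libraries did not overlap between strains (log2 difference -1.08 ± 0.29, SE, limma-trend adjusted p = 0.100; 35.1% of all models did not overlap). Dusp1 and Dusp2 had log2 differences of -1.04 ± 0.34 and -1.17 ± 0.43, and Dusp4 of 1.02 ± 0.32 (SE, limma-trend adjusted p = 0.148, 0.185 and 0.140). Both C57Bl/6EiJ libraries share a label date that no Balb/cJ library has, so strain and that date cannot be told apart. Of the 8 macrophage markers 5 (Csf1r, Adgre1, Itgam, Fcgr1 and Mertk) were lower in all 3 Balb/cJ than in both C57Bl/6EiJ libraries and 3 overlapped, with Csf1r at 58.6 to 83.1 RPKM against 173 and 183, and their part in the strain differences was not tested. Between KLA and vehicle 7 of the 8 overlapped, and Cd14 was higher with KLA. The effect of KLA differed between strains in 0 of the 10 by limma-trend and 0 by limma-voom, and none reached an unadjusted p under 0.05; 0% of all models passed and 835 did at the unadjusted level.

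The kinases these phosphatases act on, and other phosphatases, were counted from lists. With KLA 0 of 19 tested members of the MAP kinase cascade passed (limma-trend; 3 at an unadjusted p under 0.05, which 15% of all models reached, and 0 by limma-voom), with a median change of -0.00019 against -0.15 over all models. Map3k8 (TPL2), the kinase that links TLR4 to ERK, had the smallest p of that list, at 17.6 ± 4.97 RPKM (SD, n = 3) with KLA and 8.62 ± 2.51 (n = 2) with vehicle (limma-trend adjusted p = 0.145). Of 12 other phosphatases 0 passed (1 unadjusted, 0 by limma-voom), with Dusp14 at 4.46 ± 5.00 against 0.15 ± 0.21 RPKM (limma-trend adjusted p = 0.253), and of 4 ERK feedback genes 0 passed (1 unadjusted, 0 by limma-voom), with Spry1, an inhibitor of receptor signalling to ERK, at 2.75 ± 0.63 against 0.50 ± 0.42 RPKM (limma-trend adjusted p = 0.162).

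In JunDKO 3 of 21 cascade genes passed, against 11.7% of all models, so the count is no result about the cascade: Map3k5 (0.90) and Map2k3 (0.80) were higher and Mapk9, which encodes JNK2, lower (-0.75, limma-trend adjusted p = 0.0354, 0.0329 and 0.0456). Of 9 other phosphatases Dusp22 rose, at 17.6 ± 0.76 RPKM against 4.01 ± 0.37 (SD, n = 2), a log2 change of 1.90 (limma-trend adjusted p = 0.00365), and of 5 ERK feedback genes Etv5, a transcription factor of the ETS family, rose by 0.93 (adjusted p = 0.0146). In Atf3KO, where 41.2% of all models passed, 8 of 21 cascade genes and 3 of the 9 other phosphatases did, no more than the share of all models. The 8 were 4 higher and 4 lower, among them Mapk3, which encodes ERK1 (1.30, limma-trend adjusted p = 0.00254), Mapk7 (1.46, adjusted p = 0.00473), Araf (1.18, adjusted p = 0.00701) and Mapk9 (-0.91, adjusted p = 0.00901). The 3 among the other phosphatases, Ppm1a, Dusp22 and Dusp12, fell, and of the ERK feedback genes Spred1 (-1.83, adjusted p = 0.00249) and Spred2 fell and Etv5 rose. In JunKO 0 passed in each of the 3 lists by limma-trend, with 1 in each at an unadjusted p under 0.05 and 0 by limma-voom.

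For the 6 phosphatases whose log2(RPKM + 1) spanned at least 3 over the 13 libraries, the models with the most similar profile were sought by the root mean square difference of centred log2 values. Dusp2 lay closest to Zfp36, which encodes the mRNA-destabilizing protein tristetraprolin (0.48), then to Csrnp1 and Ppp1r15a. Dusp5 lay closest to Maff (0.57), a small Maf transcription factor, followed by Zfp36 and Ppp1r15a, and Dusp1 to Ccrl2 (1.01), Csrnp1 and the chemokine gene Cxcl2. The nearest to Dusp4 were Cflar (0.48), an inhibitor of caspase-8, Rnd3 and Rnd1, and to Dusp8 Gpr132 (0.32), Itga5 and Klf6. Dusp6 had other neighbours, Abcc1 (0.38), Dst and the macrophage gene Adgre1. These profiles share 13 libraries, their depths and the contrast of the 2 cell kinds, and are given as a description.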

How the data were processed

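PolyA RNA was sequenced in 13 libraries, and 4 GRO-seq samples of the series were not analysed here. The deposited values are RPKM over exons of 24453 gene models, which the authors obtained by aligning reads with STAR at default settings to mm10, or to a Balb/cJ genome derived from it, and counting with HOMER; versions and the strand setting are not given in the sources used here. Per the labels the build is mm10 (GRCm38), and GC content and promoters came from GRCm38.p6 annotation of RefSeq. Samples were grouped by their labels, and the Balb/cJ KLA replicate numbers follow accession order.

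A model was tested where its RPKM averaged 1 or more in the libraries of a fit. limma-trend (limma 3.58.1, R 4.3.3) was run on log2(RPKM + 1). The iBMDM fit took 8 libraries with a coefficient for each group, leaving 4 degrees of freedom. The TGEM fit took 5 libraries with terms for KLA and strain, leaving 2, or 1 with their interaction. P values are two-sided and Benjamini-Hochberg adjusted over all models tested in a comparison. A gene rose or fell where the adjusted p was under 0.05; the study's limits of 2-fold and 16 RPKM were applied as a second rule. Changes on the log2(RPKM + 1) scale are understated for low genes. The report prints them mainly where the unadjusted p was low. Other members are given by their levels or, in some comparisons, not in the text, a choice made after the values were seen. Whole reads and depth were recovered from the RPKM steps: of values up to 50 reads, 100% were whole to 0.05 or to the rounding of the table, and these reads entered limma-voom as an alternative. Precision of low genes is limited by depth.

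All 10 genes are named, and the 4 genes of smallest p of a list may be. The genes and the lists were chosen with earlier results of these data known. Alternatives were other pseudocounts (0.1 and 5), filters (none, or a mean of 5 RPKM), scaling, GC correction, covariates, the replicate block and leaving out each library, which gives a lone library the spread of the remaining groups. The fits were tested on simulated data. Python 3.11.15 and matplotlib 3.10.9 drew the figures.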

Additional observations from a re-analysis of the deposited data

Results flagged for a closer look

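For Dusp6 and Dusp10 the difference between KLA and vehicle had opposite signs in the 2 strains, although neither gene passed for KLA or for the interaction, and both Balb/cJ differences use the same vehicle library. Dusp6, the cytoplasmic ERK phosphatase, differed from vehicle by 0.077 on the log2(RPKM + 1) scale in C57Bl/6EiJ and by -1.08 and -0.99 in Balb/cJ, and the difference between strains was -1.11 ± 0.43 (SE, limma-trend interaction, adjusted p = 0.617). The vehicle and KLA libraries held 29 to 108 reads of Dusp6 each. Dusp10, a JNK and p38 phosphatase, differed by 0.20 in C57Bl/6EiJ and by -0.66 and -0.22 in Balb/cJ, a difference between strains of -0.64 ± 0.51 (SE, limma-trend interaction, adjusted p = 0.802). The test of the interaction had 1 residual degree of freedom.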

How the results depend on the processing

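Of 152 comparisons of a member count with an alternative fit, 138 stayed within 1.5 times. Of 1243 alternative values of the 78 member changes tested, 40 turned the sign, in 23 changes, and 0 of these passed the test in either fit; the cause was not tested. With KLA the count of 5 became 3 without the filter on low values, and 0 to 5 on leaving out 1 library, the 0 without the Balb/cJ vehicle library; the cause was not tested. Between strains the count of 0 became 1 by limma-voom and 1 with all 13 libraries in one fit, and 0 to 1 on leaving out 1 library. For JunDKO minus Atf3KO the count of 4 became 1 with only those groups in the fit, and 0 to 4 on leaving out 1 library. For JunDKO minus JunKO the count of 2 became 0 to 3, and for Atf3KO minus JunKO the count of 3 became 0 to 3, on leaving out 1 library. Correlations of replicate differences were 0.18 to 0.22 among Scramble, JunKO and JunDKO, whose libraries share a label date, and -0.21 to -0.12 between each of these and Atf3KO, whose replicate 2 has another date, so the numbers were not taken to pair all 4 groups. With the replicate block the counts were 5 in Atf3KO, 0 in JunKO and 3 in JunDKO against Scramble, and the JunDKO minus Atf3KO count was 3. With the block and without the Atf3KO libraries, an alternative chosen after seeing the data, the counts were 0 in JunKO, 3 in JunDKO and 3 for JunDKO minus JunKO, where 141, 2654 and 2204 of all models passed against 30, 1256 and 870. Over the alternatives the number of all models that passed ran from 2087 to 4660 in Atf3KO (4409 as reported), from 9 to 141 in JunKO, from 409 to 2654 in JunDKO, from 28 to 431 with KLA (158), from 32 to 793 between strains (239), from 0 to 97 for the interaction (0), and from 228 to 2204, 2147 to 5868 and 1544 to 4037 for JunDKO minus JunKO, JunDKO minus Atf3KO and Atf3KO minus JunKO (870, 4355 and 3792). TGEM libraries carry no replicate numbers in their labels, and the interaction could not be fitted with 1 library left out. Groups of 2 libraries and depths from 1553296 reads limit what can be seen for Dusp2, Dusp5, Dusp8 and Dusp10 in iBMDMs.

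With GC correction the log2 changes that turned sign became 0.068 for Dusp3 with KLA, 0.049 for Dusp16 in Atf3KO, -0.089 for Dusp5 in JunKO, -0.088 for Dusp16 in JunDKO, 0.039 for Dusp7 and -0.14 for Dusp16 in JunDKO minus Atf3KO, 0.24 for Dusp8, 0.040 for Dusp7 and 0.19 for Dusp5 between strains, and -0.064 for Dusp5 in the interaction. Equal library medians gave 0.12 for Dusp3 with KLA and -0.16 for Dusp16 in JunDKO. Quantile normalization gave -0.026 for Dusp10 in JunKO, -0.18 for Dusp16 in JunDKO and -0.12 for Dusp16 in JunDKO minus Atf3KO. A pseudocount of 5 gave -0.018 for Dusp5 in JunKO and -0.065 for Dusp2 in the interaction, and label date in place of strain 0.046 for Dusp3 with KLA. On leaving out 1 library, the log2 changes that turned sign in at least 1 such fit ran as follows. With KLA they ran from -0.14 to 0.047 for Dusp3, from -1.03 to 0.077 for Dusp6 and from -0.44 to 0.20 for Dusp10. Between strains they ran from -0.80 to 0.31 for Dusp6 and from -0.47 to 0.020 for Dusp16. In Atf3KO Dusp16 ran from -0.31 to 0.016. In JunKO Dusp5 ran from -0.61 to 0.65 and Dusp10 from -0.14 to 0.20. In JunDKO Dusp1 ran from -1.02 to 0.43, Dusp5 from -1.05 to 0.37, Dusp10 from -0.46 to 0.11 and Dusp16 from -0.074 to 0.25. In JunDKO minus JunKO Dusp1 ran from -0.0063 to 0.87, Dusp5 from -1.07 to 0.34, Dusp10 from -0.49 to 0.075 and Dusp16 from -0.26 to 0.011.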
